A study of Homo sapiens with 4 samples.

Results

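The 4 HOX clusters are the genomic homes of the HOX genes, and the ELF5 peaks that fall in them are described here across HOXA, HOXB, HOXC and HOXD. A peak was taken as a member when its summit lay in 1 of 4 windows on hg19. The windows ran on chromosome 7 from 27080001 to 27300000 for HOXA, on chromosome 17 from 46555001 to 46860000 for HOXB, on chromosome 12 from 54280001 to 54500000 for HOXC, and on chromosome 2 from 176905001 to 177105000 for HOXD. They held 189 of the 115384 peaks in the list, which is 0.164%. The list came from ChIP-seq of ELF5, a member of the ETS family that directs alveolar differentiation in the breast, in T47D, an established luminal A breast cancer line, grown in RPMI with serum and insulin and given no treatment. The labels name 3 ELF5 ChIP samples and 1 input sample, all from this single line, and do not say whether the 3 came from separate cultures. Values of the separate replicates are not in this single list, so the spread between them is unknown for every value below and no test between windows was made.

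HOX genes encode homeodomain transcription factors that give cells their position along the body axis. Vertebrates carry them in clusters in which the order of the genes follows the order of their expression along the axis, low numbers towards the head and high numbers towards the tail, and genes with the same number in different clusters are paralogues. Whole clusters or parts of them are held silent by Polycomb complexes in many adult cells, while other parts stay active. In breast tissue, HOXA5 is known as an activator of the p53 gene, and the expression of HOXB13 has been studied as a marker of outcome under tamoxifen.

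The windows were drawn to hold 38 HOX genes, all of which were found in the RefSeq gene table for GRCh38.p14. That table was used for the order of the genes alone, which was taken to be the same on hg19. From low to high coordinate, HOXA ran from HOXA2 through HOXA3, HOXA4, HOXA5, HOXA6, HOXA7, HOXA9, HOXA10 and HOXA11 to HOXA13. HOXB ran in the same sense, from HOXB1 through HOXB2, HOXB3, HOXB4, HOXB5, HOXB6, HOXB7, HOXB8 and HOXB9 to HOXB13. The other clusters ran the opposite way. HOXC began with HOXC13, HOXC12, HOXC11, HOXC10, HOXC9 and HOXC8 and ended with HOXC6, HOXC5 and HOXC4, which share a first position in the table, and HOXD ran from HOXD13 through HOXD12, HOXD11, HOXD10, HOXD9, HOXD8, HOXD4 and HOXD3 to HOXD1. No position of a gene on hg19 was used, so no peak is tied to a single gene, and that the windows hold these genes rests on how they were drawn.

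ELF5 recognises DNA through its ETS domain, whose textbook target is the core GGAA. The letters of the HOX promoters are shown because they are the regulatory sequence of these genes that could be read here; the sequence under the hg19 peaks was not used. RefSeq promoters of GRCh38.p14, each from 250 bases before a gene's start to 50 after it, were found for 20 of the 38 genes, 27 promoters in all, of which HOXA3 alone had 7. The genes with no entry were HOXA5, HOXB2, HOXB3, HOXB4, HOXB5, HOXB6, HOXB7, HOXB8, HOXB9, HOXB13, HOXC6, HOXC8, HOXC9, HOXC10, HOXC11, HOXC12, HOXC13 and HOXD9. HOXB and HOXC are therefore represented by 1 and 2 promoters. The letters CCGGAA, the form of the core preferred by many ETS factors, were searched on both strands and were in none of the 27, while 17.2% of all 35116 promoters of this length held them. AGGAAG, another form, was in 5 of the 27, or 18.5%, against 33.6% of all promoters, and the bare core GGAA, which both longer forms contain, in 24, or 88.9%, against 95.5%. The bare core is thus in most promoters of either kind, and a share of 27 promoters from few genes is a description of their letters alone. The 5 promoters with AGGAAG belong to HOXA3, HOXA11, HOXB1 and HOXD3, and hold these 6 stretches, 5′ to 3′ on the gene's strand, with the match in capitals, read as CTTCCT where it lies on the other strand. Their coordinates are on GRCh38.p14 and cannot be set against the hg19 positions of the peaks.

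HOXA3, chr7:27151118-27151147, minus strand, match from position -185 to the start: gattcgataaatAGGAAGgggctgtggatg
HOXA3, chr7:27151026-27151055, minus strand, match from position -93 to the start: taggtccgccgcCTTCCTgactgcggctgc
HOXA3, chr7:27123062-27123091, minus strand, match from position -52 to another start: tcccagacaaggCTTCCTtttgttaggaaa
HOXA11, chr7:27185381-27185410, minus strand, match from position -166 to the start: ggctacaaagaaAGGAAGccgggagggagg
HOXB1, chr17:48531024-48531053, minus strand, match from position -30 to the start: actccctaccccCTTCCTagggaagcgctt
HOXD3, chr2:176157211-176157240, plus strand, match from position -84 to the start: tttctaagtgcgAGGAAGatgataagaata

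ELF5 peaks were more crowded in 3 of the clusters than in HOXD. The HOXA window held 55 peaks, or 250 per Mb, HOXB 63, or 207 per Mb, and HOXC 55, again 250 per Mb. The HOXD window held 16 peaks, or 80 per Mb. Chromosomes 1 to 22 and X together held 38.0 peaks per Mb, so the densities were 6.58, 5.44, 6.58 and 2.11 times that of the genome in the order HOXA to HOXD. The chromosomes themselves differed. Chromosome 7 held 38.9 peaks per Mb, chromosome 17 held 99.6, chromosome 12 held 43.4 and chromosome 2, that of HOXD, held 22.1. Each window, HOXD included, was thus denser than its own chromosome.

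Each cluster stood above the chromosome next to it, but by different amounts. HOXA stood out from nearly empty surroundings, where the flanks, 1 window length on each side, held 4 and 3 peaks against 55 inside. This is a density 15.7 times that of the flanks (95% interval 7.14 to 40.9), where the interval covers counting error only and takes peaks as independent, which neighbouring peaks are not. HOXD stood out likewise, at a lower level, with 3 and 1 peaks in its flanks and a ratio of 8.0 (2.58 to 32.9). HOXB had 5 peaks in the flank below and 22 in the flank above, for a ratio of 4.67 (2.93 to 7.62), and its flanks were uneven. HOXC lay among other peaks, with 16 in the flank below and 36 in the flank above, and its ratio was 2.12 (1.42 to 3.15). With flanks of 3 window lengths the ratio was 9.71 for HOXA and 5.33 for HOXD. It was 2.19 (1.57 to 2.99) for HOXC and 1.82 (1.35 to 2.42) for HOXB. HOXB was then the lower of these 2, but their intervals overlap, so their order is not resolved.

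Set against the rest of its cytogenetic band, each cluster was again denser, in the order found with the shorter flanks. The rest of 7p15.2, the band of HOXA, held 33.3 peaks per Mb, so that HOXA stood 7.50 times higher. The rest of 2q31.1 around HOXD held 19.9 per Mb, a contrast of 4.02 times. The rest of 17q21.32 held 91.6 per Mb and HOXB stood 2.26 times higher. The band 12q13.13, rich in peaks as a whole, held 152 per Mb outside HOXC, which stood 1.65 times higher. HOXA and HOXC, equal in density, thus lay in surroundings that differed in density.

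**Figure D1:**
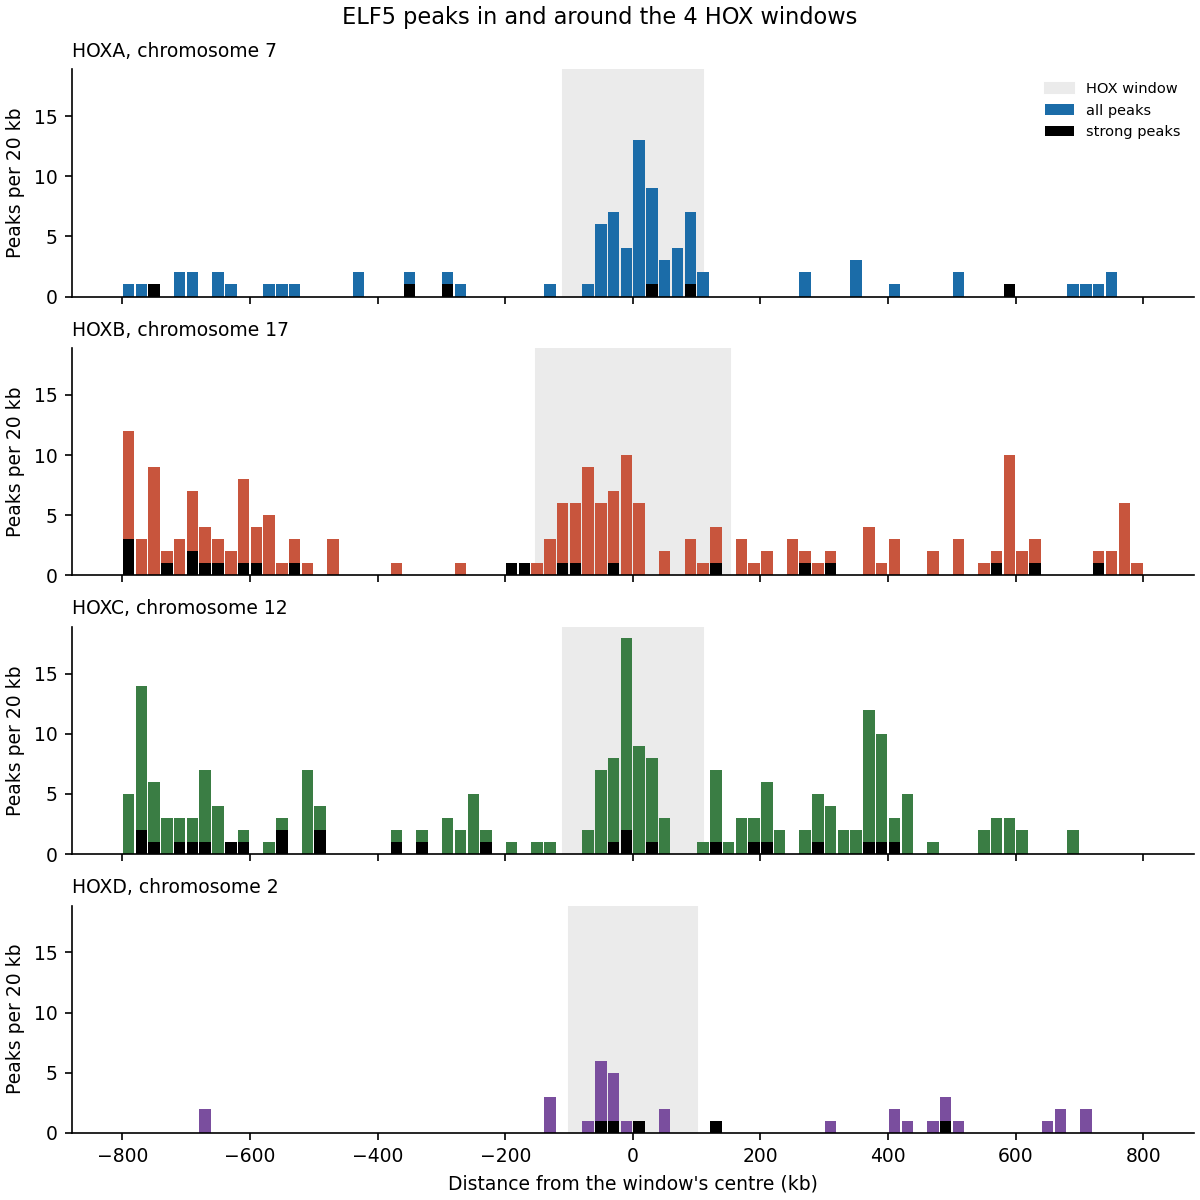
Number of ELF5 peaks in bins of 20 kb (vertical axis) by distance in kb from the centre of each HOX window (horizontal axis), with strong peaks, the highest 10% of folds in the list, drawn in black over all peaks in colour and the window in grey. HOXA and HOXD rise out of nearly empty flanks, with 7 and 4 peaks within 1 window length on both sides together, whereas HOXB and HOXC have 27 and 52.

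The local background differed between the windows and was lowest in HOXD. For each peak the authors' deposited fold, the ratio of ChIP to local background, and p gave the fragment pileup at the summit and the background it was set against. The background had a median of 3.62 fragments in HOXA, 4.46 in HOXB, 4.68 in HOXC and 2 in HOXD, against 3.11 over the list. HOXD peaks had backgrounds between 1.81, which no peak of the list falls below, and 3. They lay below all HOXB and HOXC peaks, whose lowest backgrounds were 3.39 and 3.48. The low level is shared by the chromosome, with a median of 2.03 over the peaks of chromosome 2, against 3.58 on chromosome 12 and 3.92 on chromosome 17. The part of the background in the low count of HOXD was not tested. Of the list's peaks over the lowest background, the weakest had a fold of 2.62. With peaks below that fold left out, 50 remained in HOXA, 57 in HOXB, 53 in HOXC and 16 in HOXD. This cut left out few peaks in any window, so it could hardly alter which was sparsest, HOXD.

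HOXC and HOXA held the same number of peaks, and HOXC held more of moderate strength. The median fold was 4.34 in HOXC (95% order-statistic interval 3.52 to 5.42) and 3.33 in HOXA (3.08 to 3.96). HOXB had a median of 3.78 (3.29 to 4.43) and HOXD of 3.75 (3.27 to 9.88), and the list's median was 3.66. All 4 intervals overlap, which is not a test of a difference, and the order of the medians is not resolved here. In the list, 32758 of 115384 peaks had a fold of 5 or more, a cut chosen after seeing the data. Reaching it were 21 of 55 peaks in HOXC, 20 of 63 in HOXB, 8 of 55 in HOXA and 4 of 16 in HOXD. In density these were 95.5, 65.6, 36.4 and 20 per Mb, so that at this fold HOXA lay well below HOXC. Above the list's median fold were 34 of the 55 HOXC peaks, 33 of 63 in HOXB, 23 of 55 in HOXA and 8 of 16 in HOXD, together 98 of 189, or 51.9%.

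Between 2 and 4 peaks of each cluster were strong. Peaks called strong, those with a fold of at least 11.99, make up 10% of the list by definition. They numbered 2 of 55 in HOXA, 4 of 63 in HOXB, 4 of 55 in HOXC and 3 of 16 in HOXD, which is 13 of 189, or 6.88%. The shares were 3.64% in HOXA (95% exact Clopper-Pearson interval 0.443 to 12.5), 6.35% in HOXB (1.76 to 15.5), 7.27% in HOXC (2.02 to 17.6) and 18.8% in HOXD (4.05 to 45.6). All 4 intervals hold 10%, so at these counts no window's share could be told from that of the list. Per Mb, strong peaks numbered 9.09 in HOXA, 13.1 in HOXB, 18.2 in HOXC and 15.0 in HOXD, against 3.80 in the genome. These rates rest on 2, 4, 4 and 3 peaks and have no interval. Whether any window differs from the genome in them was not tested. At this cut HOXD, with the fewest peaks, lay between HOXB and HOXC in the density of strong ones. Its local background was lower than that of either. This place rests on the cut. With the highest 20% of folds HOXD held 4 peaks, against 6 in HOXA, 13 in HOXB and 15 in HOXC. Ranked by p in place of fold, the highest 10% of the list included 7 peaks of HOXC in place of 4. It included 2 of HOXD in place of 3, with HOXA and HOXB unchanged.

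Weakly supported peaks were as frequent in HOXA as in the list. The authors' q was 0.05 or more for 12.5% of the list and for 14 of the 189 members, 7.41%. These were 7 in HOXA, or 12.7%, 4 in HOXB, or 6.35%, 3 in HOXC, or 5.45%, and none of the 16 in HOXD, where the highest q was 0.0365.

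The strong peaks of HOXA were the fewest and the weakest at their top. The stronger of them covered 27274779 to 27275283, with a fold of 15.5 (95% Poisson interval 12.8 to 18.5) and 118 fragments over a background of 6. It lay 195 kb from the lower end, on the HOXA13 side of the window, just above the longest distance between neighbouring summits in HOXA, 15.3 kb. The other, at 27219442 to 27219951, had a fold of 13.8 (10.7 to 17.4). Their intervals overlap, and that of the second reaches below 11.99, the fold at which strong begins.

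HOXB held the strongest peak of all 4 windows. It covered 46599464 to 46599960 on chromosome 17, with 238 fragments over a background of 4.59 and a fold of 38.9 (34.2 to 44.2), and ranked 490 among the 115384 peaks by fold. Its summit lay 44.7 kb from the lower end, in the part of the window on the HOXB1 side, with the nearest summits 6.05 kb below and 4.82 kb above it. The peak was 497 bp wide, above the medians of HOXB (263 bp) and the list (215 bp), while the next 2 in strength were wider than 1000 bp. The peak at 46674686 to 46675749 had a fold of 26.2 (22.3 to 30.6) and the one at 46618530 to 46619975 a fold of 18 (14.5 to 22). The interval of the strongest peak does not meet that of either. The last strong peak, at 46834155 to 46834540, had a fold of 13.1 (10.5 to 16.1) and stood at the HOXB13 end, 34.3 kb below the next summit on its upper side.

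HOXC held its 4 strong peaks within 43.2 kb of each other. The strongest, at 54388991 to 54390389 on chromosome 12, had 203 fragments over a background of 5.27 and a fold of 29.6 (25.7 to 34). Next came the peak at 54410783 to 54412833, with a fold of 26.4 (22.6 to 30.6), then those at 54367936 to 54369091, with 20.5 (17.2 to 24.2), and at 54378558 to 54380533, with 15.8 (12.9 to 19.1). The first 2 overlap in their intervals and were not resolved, while the interval of the strongest does not meet those of the last 2. These intervals cover counting error only. All 4 were broad and lay among other peaks, with the nearest summit between 0.657 and 1.60 kb away.

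HOXD held 1 strong peak that stood alone. It covered 177005193 to 177005818 on chromosome 2, with 105 fragments over a background of 2 and a fold of 32.2 (26.4 to 38.9). The nearest summits were 19.2 kb below and 47.5 kb above it, and the upper distance was the longest between neighbouring summits in any of the 4 windows. Its fold overlaps in interval with those of the strongest peaks of HOXB and HOXC, although its pileup was less than those of both. The other strong peaks of HOXD lay nearer the HOXD13 end. The first spanned 176952767 to 176953363 and reached a fold of 16.2 (12.1 to 21.3), and the second spanned 176971509 to 176972054 and reached 14.6 (10.8 to 19.3). They rested on 49 and 47 fragments, the smallest pileups among the 13. Just below the threshold, the strongest members that were not strong were 3 HOXC peaks with folds of 11.9, 11.2 and 10.8, and the weakest that were strong were the 13.1 of HOXB and the 13.8 of HOXA named above.

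**Figure D2:**
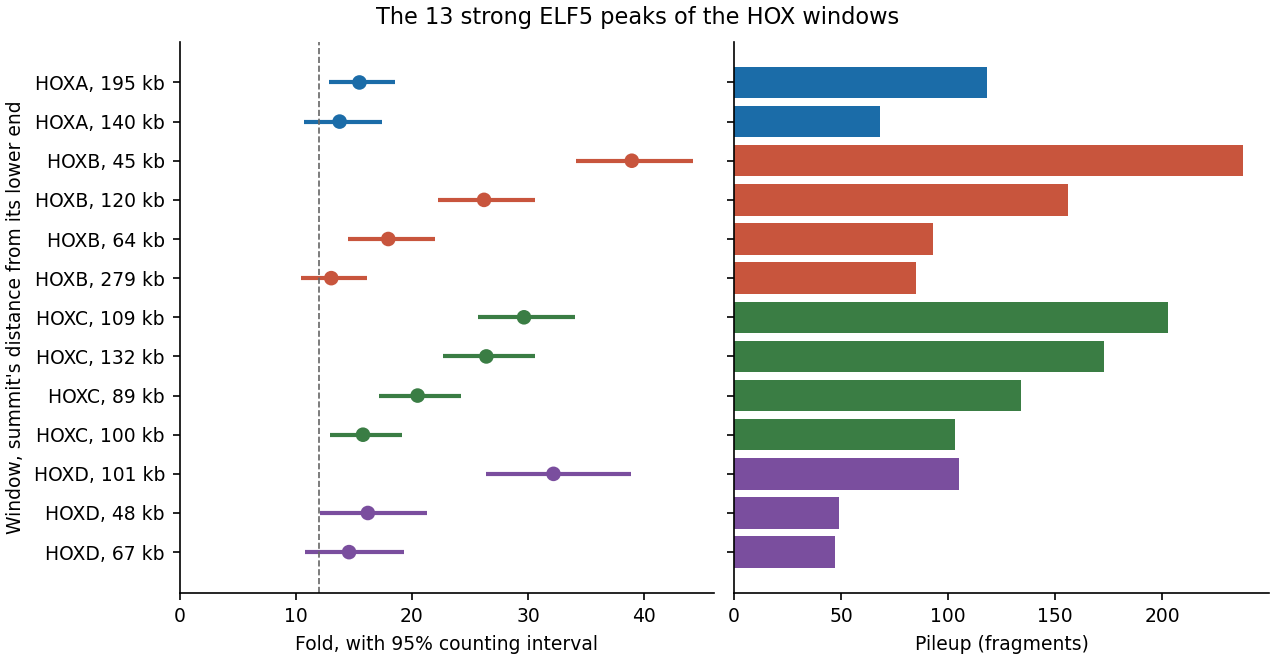
Fold with its 95% counting interval (left, points and bars) and fragment pileup (right, bars) of each strong peak, named on the vertical axis by window and by the distance in kb of its summit from the window's lower end. HOXB has the highest fold, 38.9, and the strongest HOXD peak reaches 32.2 with 105 fragments, fewer than the 203 of the strongest HOXC peak.

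Broad peaks were found in HOXB and HOXC and not in the other windows. Peaks of at least 1000 bp make up 5.05% of the list. They numbered 5 of 63 in HOXB, or 7.94%, and 7 of 55 in HOXC, or 12.7%. None was found among the 55 peaks of HOXA or the 16 of HOXD. No test was made, and with a list share this low, none among so few peaks does not set HOXA or HOXD apart. The broadest in HOXC, 2051 bp, was its second strongest peak, and the broadest in HOXB, 1544 bp at 46702263 to 46703806, had a fold of 8.93 (6.64 to 11.8). The broadest peak of HOXA, 27189889 to 27190746, measured 858 bp, and its fold was 7.30 (5.25 to 9.90). The broadest of HOXD, 176962041 to 176962695, measured 655 bp, and its fold was 9.88 (7.19 to 13.3). Of the 12 broad peaks 6 were strong, 2 in HOXB and all 4 strong peaks of HOXC. In the list as a whole 69.4% of broad peaks were strong. The median width was 345 bp in HOXC, 263 in HOXB, 229.5 in HOXD and 212 in HOXA, against 215 over the list. The smallest width in the list, 135 bp, was shared by 9.27% of all peaks and by 1 peak in HOXA, 4 in HOXB, 1 in HOXC and 3 in HOXD. Peaks covered 12.3% of the bases of the HOXC window, 8.32% of HOXB, 6.63% of HOXA and 2.5% of HOXD.

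**Figure D3:**
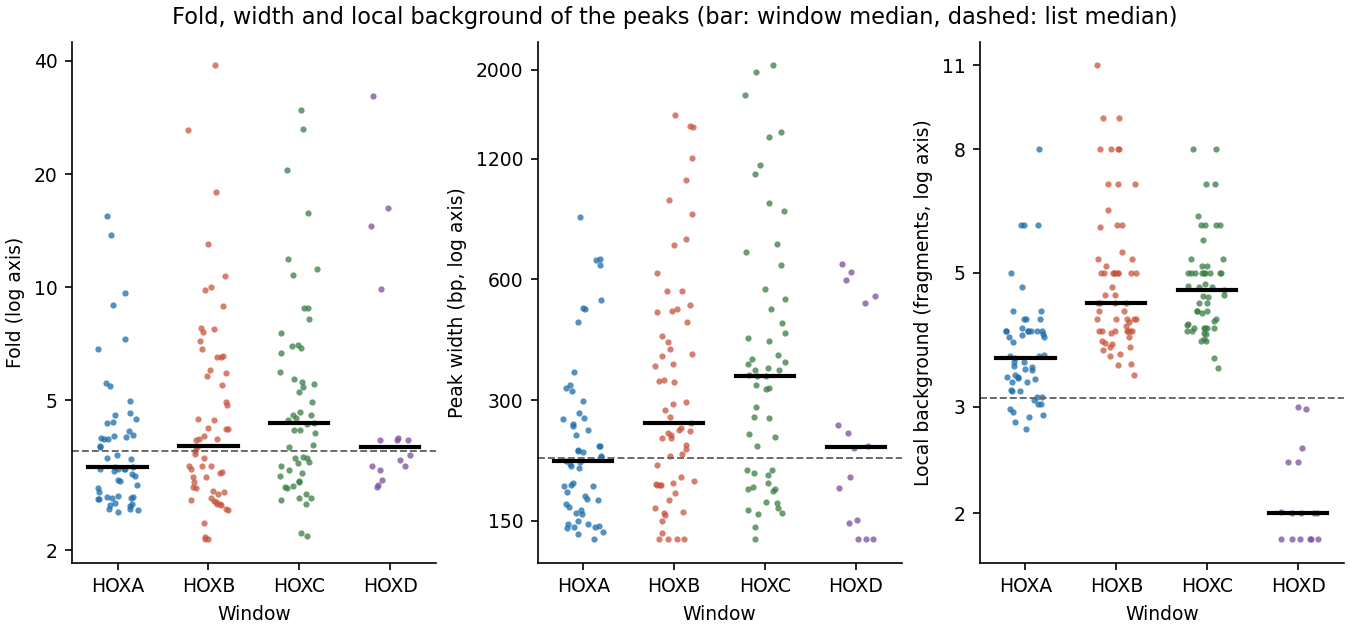
Fold, peak width in bp and local background in fragments (vertical axes, all logarithmic) of every peak in each HOX window (horizontal axis), with the window's median as a black bar and the list's median as a dashed line. HOXC has the highest medians of fold (4.34) and width (345 bp), and HOXD peaks lie at the lowest background, with a median of 2.

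Within the windows the peaks were unevenly spread, and HOXC held the fullest stretch by number of peaks. A stretch of 40 kb in HOXC, with summits from 54362132 to 54399949, held 34 of its 55 peaks, 61.8%, and 3 of its 4 strong ones. Of all peaks in the list, 0.407% had as many summits in the 40 kb that begin at their own, and the fullest such stretch anywhere held 46. The fullest 40 kb held 22 peaks in HOXA, a number reached from 5.14% of all peaks, 19 in HOXB, reached from 8.45%, and 12 in HOXD, reached from 22.6%. The median over the list was 5. In HOXD this stretch, from 176949943 to 176986441, held 12 of the 16 peaks, 75%, a larger share than in HOXC, and lay towards HOXD13. In HOXA the share was 40% and in HOXB 30.2%.

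In tiles of 5 kb the spread took another order. At least 1 summit was found in 28 of 44 tiles in HOXA, 34 of 61 in HOXB, 21 of 44 in HOXC and 10 of 40 in HOXD, against 12.2% of all tiles on chromosomes 1 to 22 and X. HOXA and HOXC held the same number of peaks, so the HOXA peaks were spread over more of their window. Tiles with 3 or more summits numbered 7, 7, 9 and 1 in the same order, against 1.62% of all tiles. The 1 tile of 40 in HOXD is near that share. The fullest tile was in HOXC with 6 summits. Neighbouring summits lay a median of 1473 bp apart in HOXC, 1635.5 bp in HOXB, 1744.5 bp in HOXA and 3514 bp in HOXD.

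In 3 equal parts of each window, from low to high coordinate, HOXA held 9, 29 and 17 peaks, HOXB 27, 28 and 8, HOXC 10, 41 and 4, and HOXD 8, 6 and 2. In HOXA the first part lies on the HOXA2 side and in HOXB on the HOXB1 side, whereas in HOXC and HOXD it lies on the side of HOXC13 and HOXD13. HOXA was therefore poorest in peaks on its low-number side and HOXB on its high-number side. The 2 clusters that read the other way, HOXC and HOXD, were poorest on the low-number side, and all 4 strong HOXC peaks lay in the middle part. The windows reach past the genes by differing lengths, so these parts are not the same share of each cluster.

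Long gaps between neighbouring summits divided HOXB and HOXD; the empty ends of the windows are not counted as gaps. HOXB had no summit for 43.5 kb, between a peak at 46755840 to 46756095 with a fold of 7.18 and one at 46799391 to 46799540 with a fold of 3.13, and for a further 24.0 kb between the summits at 46725266 and 46749225. The 2 peaks between these gaps stood alone. Above the longer gap lay 8 peaks, in the part on the HOXB13 side, of which 1 was strong. In HOXC the longest gap was 12.6 kb, between a peak at 54432136 to 54432480 with a fold of 2.22 and one at 54444958 to 54445092 with 2.66. In HOXA it was 15.3 kb, and the peak on its lower side, at 27259690 to 27259854, had a fold of 3.29. In HOXD the 47.5 kb above the strongest peak ended at a weak peak, 177052984 to 177053508, with a fold of 2.98, and only 2 peaks lay beyond it, on the HOXD1 side. With summits at most 10 kb apart joined, HOXB fell into 8 groups and each of the other clusters into 4. The largest group held 34 peaks in HOXC, 31 in HOXA, 29 in HOXB and 12 in HOXD.

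**Figure D4:**
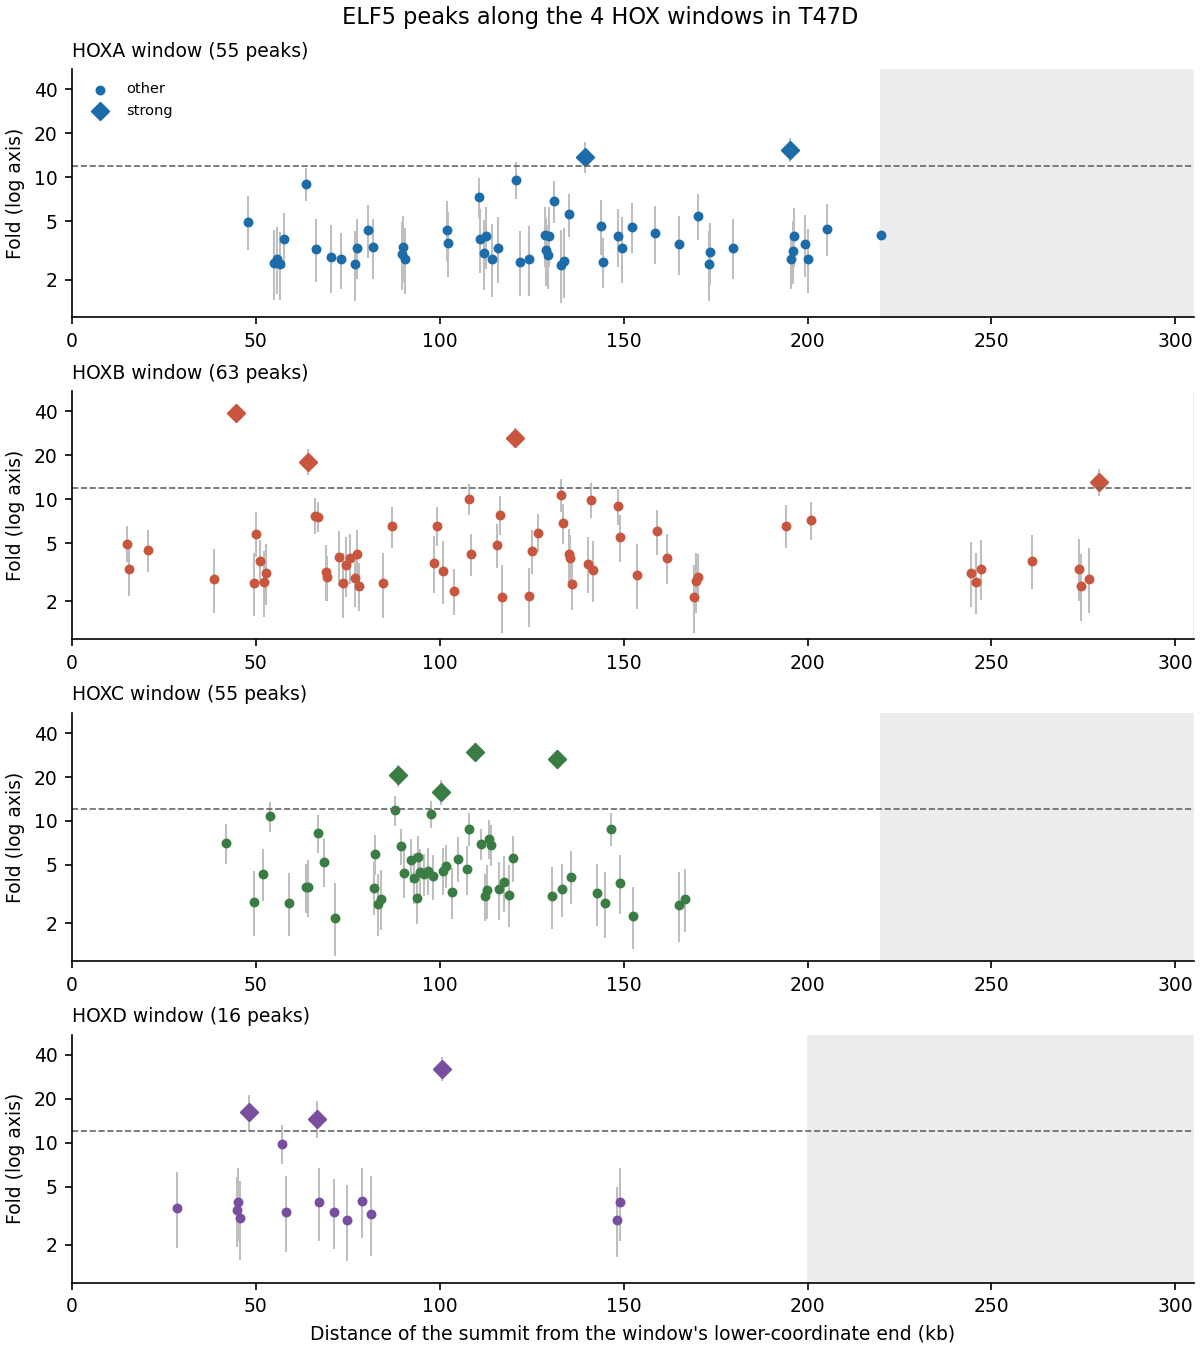
Fold of each ELF5 peak (vertical axis, logarithmic, with 95% counting intervals) by the distance of its summit in kb from the lower-coordinate end of its HOX window (horizontal axis), with strong peaks as diamonds, a dashed line at the fold of 11.99 where they begin, and grey beyond the window's upper end. HOXC peaks crowd into its middle, HOXB is broken by a gap of 43.5 kb and HOXD by one of 47.5 kb.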

How the data were processed

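ELF5 binding in T47D was measured by ChIP-seq in 3 samples, with 1 input sample. The authors' deposited data used here were 1 peak list on hg19, per the file headers. The sources used here do not state the aligner, peak caller, threshold or pooling. The name of the list holds IDR1-3, where IDR is the irreproducible discovery rate between replicates. Whether the list rests on replicates 1 to 3 or on 1 and 3 is unknown. It is also unknown whether an IDR threshold was applied. The deposited values were a fold per peak (a ratio with no stated unit), −log10 p, −log10 q and a score equal to the whole part of 10 times −log10 p.

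Each member peak's pileup and background were recovered from fold and p, with a factor of 0.910, a pseudocount of 1 and a Poisson tail, within 0.001 of −log10 p for all 189 members. This step was tested on simulated data. Intervals of folds are exact Poisson 95% intervals with the background fixed; they cover counting error only. Total reads per sample are unknown here. Positions are counted from 1. Bands came from circlize 0.4.16, whose 24 chromosome ends matched GenomeInfoDb 1.38.1. Calculations ran in Python 3.11.15 (scipy 1.17.1, pandas 2.3.3, numpy 2.4.6) and plots were drawn in matplotlib 3.10.9.

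The windows, genes and thresholds were chosen with earlier results of these data known. Named were all strong peaks (at most 5 a window), the broadest peak, the peak with the highest −log10 p, and the peaks beside the longest gap between neighbouring summits. Peaks at single genes were not analysed here.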

Additional observations from a re-analysis of the deposited data

How the results depend on the processing

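No alternative for the count of all peaks changed which window had fewest, HOXD. This does not cover the counts of strong peaks, which are given below. Of 86 alternative values, 55 stayed within 1.5 times the reported count or gap, or within the 95% interval of the reported ratio or median, and 31 moved. All 20 values with q under 0.05 stayed. With the highest 50% of folds, HOXA, HOXB, HOXC and HOXD held 23, 34, 34 and 8 peaks, and with a fold of at least 5, chosen after seeing the data, 8, 20, 21 and 4. Joining summits within 1 kb gave 36 in HOXA, 40 in HOXB and 34 in HOXC. The ratio of HOXB to its flanks was 1.82 with flanks of 3 window lengths. Strong peaks numbered 0 in HOXA, 2 in HOXB and 1 in HOXD with the highest 5% of folds, 6 in HOXA, 13 in HOXB and 15 in HOXC with the highest 20%, and 7 in HOXC with the highest 10% by p. Between strong peaks alone the longest gap was 55.5 kb in HOXA, 159 kb in HOXB and 22.3 kb in HOXC. Joining within 5 kb gave 13, 17 and 7 groups in HOXA, HOXB and HOXC, and within 2 kb gave 27, 30, 19 and 11 in HOXA to HOXD. The counts at other folds or joining distances change by construction, while for the HOXB ratio and the ranking by p the cause was not tested. AGGAAG was in 5 HOX promoters and GGAA in 24, against 0 for CCGGAA. With the pileup in place of the fold, the medians were 17, 25, 27 and 11.5 fragments in HOXA to HOXD, so HOXD, above HOXA by fold, was lowest. Replicates could not be left out in turn. No paired analysis was possible because replicates have no values of their own in the list. The precision of weak peaks is limited by their few fragments.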

Other observations

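The space between the clusters' outermost peaks and the next peaks outside them differed. The summits of HOXD spanned 120 kb, with the next summit 49.4 kb below and 80.2 kb above. Those of HOXC spanned 125 kb, with 59.5 kb free below and 63.3 kb above, although HOXC lies in the band richest in peaks of the 4. HOXA spanned 172 kb and had 64.5 kb free on the HOXA2 side, while its last member lay 9.08 kb from the next summit above. HOXB spanned 264 kb, with 20.2 and 34.3 kb free.

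The single peak in the 200 kb above HOXD was strong, with a fold of 30.8. The flanks of HOXC held 6 strong peaks among 52 in 440 kb, and those of HOXA 1 among 7. By definition 10% of the list is strong, and both shares lie near it.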
